A study of Mus musculus with 8 samples.

Results

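The question addressed here was which genes respond to PGC-1α and iron chelation together other than by the sum of the single effects. It was put to all 8 of the 8 arrays of the series, 2 in each of 4 groups, and to 18193 genes. The cells were C2C12 myotubes, multinucleated muscle cells formed by an established mouse myoblast line when serum is lowered. Every culture spent 3 days in 2% serum, then received adenovirus, and gave RNA 3 days after infection. The virus carried green fluorescent protein (GFP) alone in 1 pair of groups and GFP-tagged PGC-1α in the other. In each pair, 1 group also received 100 µM deferoxamine (DFO), a chelator of ferric iron, and the other received none. The groups are called GFP, PGC-1α, GFP plus DFO and both factors. All cells thus carried virus and GFP, the coactivator came from a transgene, and the 2 arrays of each group were biological duplicates by the design text. Where duplicates share a culture batch, p-values cover only the spread between these arrays.

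PGC-1α is a coactivator: it binds nuclear receptors such as the estrogen-related receptors and raises the transcription of genes for mitochondrial respiration. DFO lowers the iron available to haem and iron-sulfur enzymes and to the prolyl hydroxylases that mark hypoxia-inducible factor (HIF) for destruction. HIF targets are then transcribed. Muscle differentiation is run by the myogenic factors, which bind E-boxes, and chemokine genes are classical targets of nuclear factor κB (NF-κB).

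The transgene was visible in the probe set for Ppargc1a, which encodes PGC-1α. It read 28.6 and 37.3 intensity units with GFP, 7211 and 7036 with PGC-1α, 26.6 and 88.1 with GFP plus DFO and 7930.3 and 7710.4 with both. The log2 effect of the construct on it was 7.77 without DFO and 7.34 with DFO, and its interaction of −0.43 ± 0.78 did not pass (adjusted p = 0.815). Array medians lay between 59.45 and 62.82 units. The 5′ to 3′ signal ratio of beta-actin, a measure of RNA integrity, was 0.921 and 0.898 with GFP, 0.919 and 0.897 with PGC-1α, 0.868 and 0.859 with GFP plus DFO, and 0.753 and 0.811 with both. Both arrays of the combination had the lowest ratios, and the ratio's own interaction was −0.14 (log2). The summed intensity of 8 myotube markers was 49784 to 52398 with GFP, 42427 to 42444 with PGC-1α, 24750 to 25114 with GFP plus DFO and 16872 to 18099 with both. By their mean over all arrays, all 8 were above the median level, which does not show each of them present in every group. Actn2 read 690 and 744 units with GFP, 92 and 75.7 with GFP plus DFO and 173 and 178 with both. The log2 change with DFO in GFP cells differed between the 8, from −3.28 for Ckm to −0.26 for Acta1. Fewer myotubes and less RNA per myotube cannot be told apart in bulk RNA. Of 9 markers of endothelial, blood, epithelial, fat and neural cells, 1 was above the median level, and their summed intensity was 263 to 286, 325 to 352, 419 to 444 and 490 to 552 in the same order of groups. The 7 markers of undifferentiated cells, 4 above the median level, summed to 1588 to 1686, 2052 to 2086.5, 1218 to 1238 and 1478 to 1740.5. The 3 of proliferating cells, 1 above it, summed to 379 to 408, 205 to 236, 302 to 305 and 220 to 222.5. The part of RNA integrity and of cell make-up in the results below was not tested.

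Each gene's interaction was the log2 effect of PGC-1α with DFO minus that without DFO. On intensities this sets the observed level of both factors against an expected level, namely the PGC-1α level multiplied by the change that DFO made in GFP cells. A positive value is called above the sum and a negative one below it. Of 18193 genes, 101 passed an adjusted p of 0.05 in limma, which is 0.555%. Above the sum were 42 genes (0.231%) and below it 59 (0.324%). The calls spanned 0.95 to 6.95 in size, with medians of 1.56 above and 1.58 below, and in all 101 both arrays of the combination lay beyond every expected value that the other arrays gave. The arrays lay apart in that way, above and below, in 16% and 18.9% of all genes. For the single effects limma passed 9.73% of genes for PGC-1α without DFO, 18.9% with DFO, 24.2% for DFO in GFP cells and 25.6% for DFO in PGC-1α cells.

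The number of calls depended on how the spread was pooled and on other choices: 4 genes passed with scaling to poly-A controls and 4 with a gene's probe sets averaged. Only 2 arrays a group were available. For a single effect, 2 arrays against 2, an exact permutation test cannot go below p = 0.333, which is not the bound for the interaction. The fit in limma borrowed the spread of dim genes as well as bright ones. The median SE of the interaction was 0.165 among the 9096 genes above the median level and 0.509 among the dimmer ones. Fitted without the dimmer genes, 1316 of the 9096 passed (14.5%), 475 above the sum (5.22%) and 841 below (9.25%), among them all 79 of the 101 calls that were bright enough to be included. Counts from this bright-gene fit are given beside the main ones below. Over all 18193 genes, 3165 (17.4%) had an unadjusted p under 0.05 in limma, 1408 above the sum and 1757 below. Of the 101 calls, 48 had an adjusted p under 0.04, so that 53 sat close to the threshold. With GFP plus DFO array 1 left out no gene passed in limma, though 2089 had an unadjusted p under 0.05, and with GFP array 1 or 2, PGC-1α array 1 or 2, both-factors array 1 or 2, or GFP plus DFO array 2 left out 2, 14, 5, 18, 77, 1 and 2 genes passed. Of the 43 calls named below by rule, 20 still passed without both-factors array 1 and at most 3 without any other array. No omission could turn the sign of any of the 101, since in each both arrays of the combination lay beyond every expected value.

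**Figure D1:**
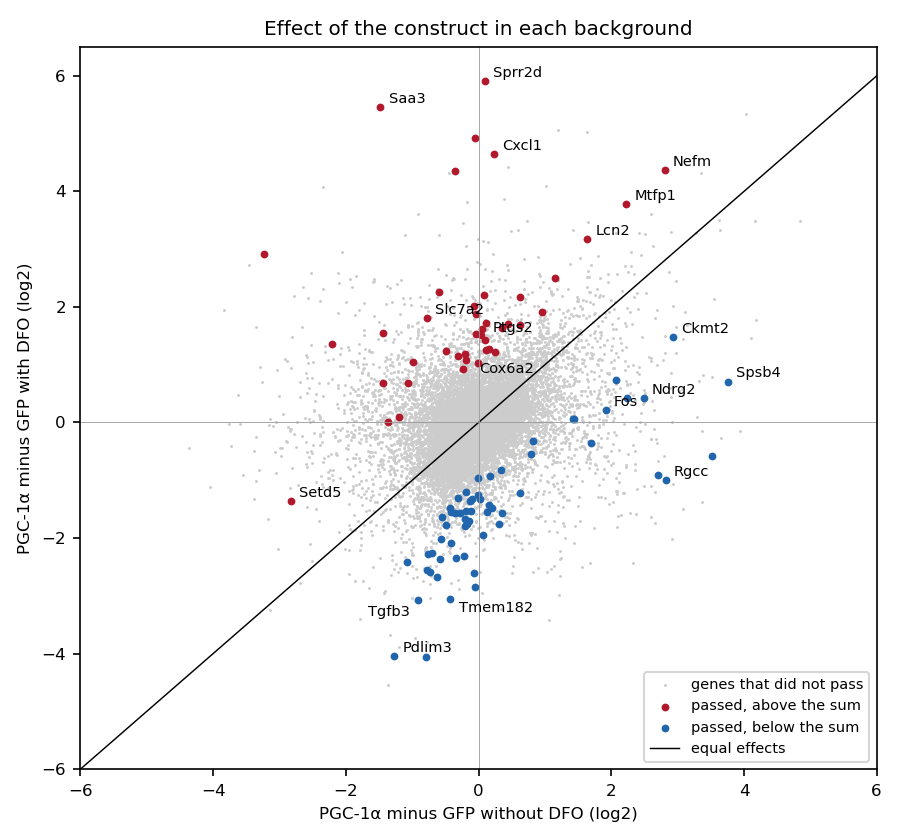
Each point is a gene; the x axis is the log2 effect of PGC-1α over GFP without DFO and the y axis the same effect with DFO, each from 2 arrays against 2. Genes on the diagonal follow the sum, the 42 red points above it and the 59 blue points below it passed limma, and many of the coloured points lie near 0 on the x axis and away from 0 on the y axis.

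Seen through the effect of PGC-1α, most calls were effects that were small in the absence of DFO and large in its presence. Taking 0.5 (log2) as the smallest effect counted, 23 of the 42 genes above the sum and 32 of the 59 below it gained an effect of PGC-1α with DFO. The sign of the effect turned in 9 and 5, the effect grew in the same direction in 7 and 12, was lost in 2 and 7 and shrank in 1 and 3. With DFO, PGC-1α was higher than GFP past the threshold for 39 of the 42, and lower for 48 of the 59. These classes describe the calls and were not tested. The sum is one of log2 effects, that is, a product of fold changes. In plain intensity units 84 of the 101 departures had the same sign and 17 the opposite one. Among the 17 were Chrng, Mtfp1, Myl2, Pdlim3, Setd5, Tgfb3, Tmem182 and Trdn, all named by rule, and Klhl41, named after its values were seen.

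Several chemokine and NF-κB genes were far above the sum. Cxcl1, a chemokine that attracts neutrophils, read 242 and 238 units with GFP, 290.4 and 275 with PGC-1α, 298 and 311 with GFP plus DFO and 7552 and 7757 with both. The 3 other groups lay within 238 to 311 units, and the combination stood far above all of them. Against an expected 358 units the observed level was 21.4 times as high, an interaction of 4.42 ± 0.11 (SE; 95% interval 4.13 to 4.71; adjusted p = 0.00186). All 3 probe sets of the gene gave values from 4.42 to 6.57. Without GFP plus DFO array 1 the adjusted p was 0.0582, and it passed in the other 7 omissions. Cxcl5, a related chemokine, read 56.2 and 64.8 units with GFP, 50 and 67.6 with PGC-1α, 42.2 and 20.9 with GFP plus DFO and 854 and 946 with both, an interaction of 4.97 ± 0.50 (adjusted p = 0.0443). Saa3, an acute-phase serum amyloid, read 31.7 and 21.6 units, 5.4 and 16.3, 6.93 and 11.5 and 421 and 370.0 in the same order of groups, an interaction of 6.95 ± 0.81 (adjusted p = 0.05). Both genes were dim without the combination, so the size of their expected level is poorly fixed, and neither passed with any 1 array left out (adjusted p 0.0685 to 0.143 and 0.0531 to 0.243). Ccl2, which attracts monocytes, was likewise highest with the combination, with 199 and 215 units for GFP, 274 and 255 for PGC-1α, 198 and 212 for GFP plus DFO and 599 and 673 for both. Its interaction was 1.27 ± 0.15 (adjusted p = 0.05; 0.0619 to 0.253 with 1 array left out).

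Tnip1 encodes a protein that binds A20 and restrains NF-κB signalling, and is itself induced by it. It read 473 and 481 units with GFP, 499 and 484 with PGC-1α, 657 and 641 with GFP plus DFO and 1866 and 1856 with both, 2.78 times the expected 668 units. The interaction was 1.48 ± 0.11 (adjusted p = 0.0251), it passed in 1 of the 8 omissions, and its adjusted p ran from 0.0452 to 0.178 over them. Both arrays of the combination read above all others, in a gene named for the size of its departure. Of the 25 measured genes on a list of chemokines, cytokines and NF-κB feedback genes, 4 passed above the sum and none below (in the bright-gene fit 5 of 13 above, none below; 14 and 1 at an unadjusted p under 0.05 over all 25). The median interaction of the list was 0.45, against −0.01 for all genes. Members that did not pass, picked after their values were seen, included Il6, an inflammatory cytokine also released by muscle, at 18.2 and 18.6 units with GFP, 23.6 and 7.67 with PGC-1α, 26.5 and 32.1 with GFP plus DFO and 547 and 616 with both (interaction 4.77 ± 0.73; adjusted p = 0.0688). Nfkbia, the inhibitor that NF-κB induces as feedback, had 0.41 ± 0.11 and passed in the bright-gene fit only (adjusted p = 0.0355). Rela, a subunit of NF-κB itself, had −0.20 ± 0.20 (adjusted p = 0.659).

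**Figure D2:**
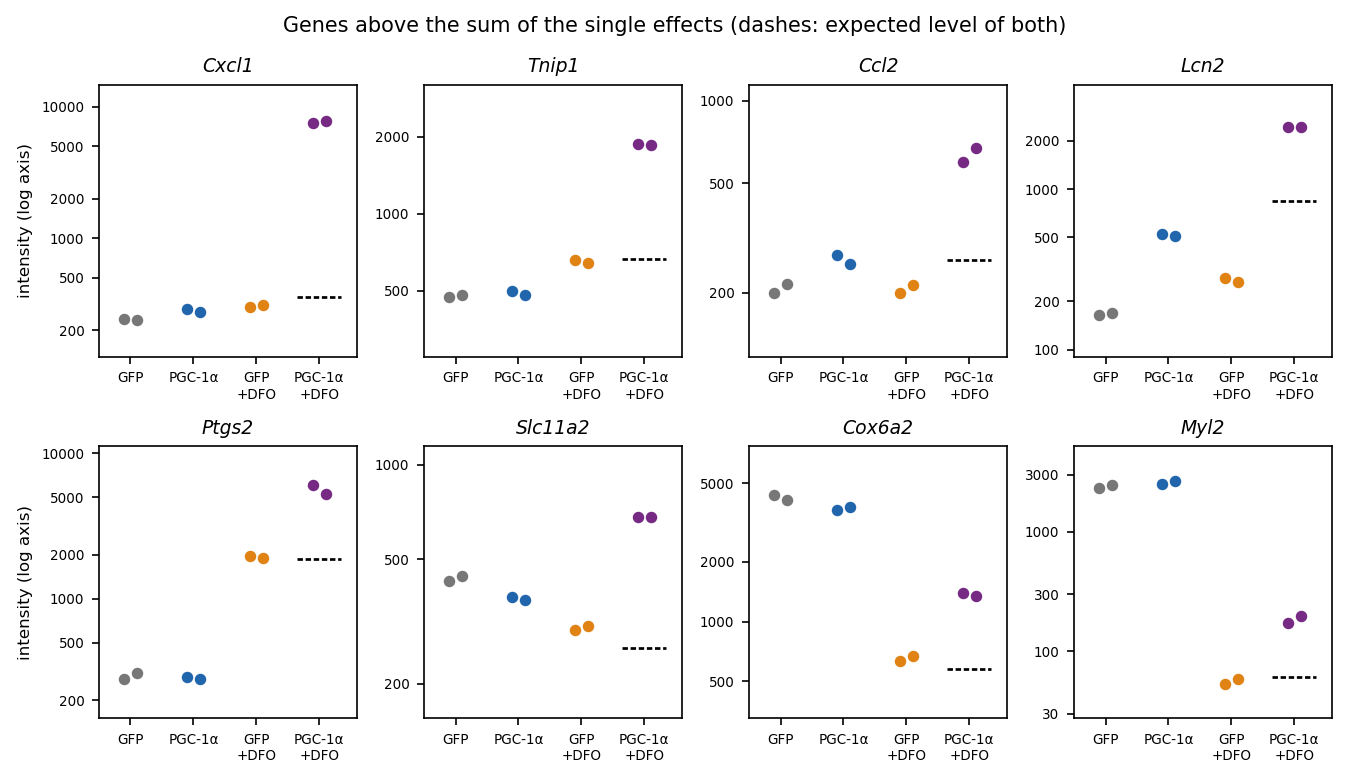
Probe-set intensity on a log axis for 8 genes above the sum, with 1 point per array, 2 arrays in each of the 4 groups, and a dashed line at the level expected of both factors. In all 8 panels both purple points lie above the dashes; for Cxcl1 they are at 7552 and 7757 against an expected 358 units.

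The promoters of 3 of these genes are shown because they hold a match to the NF-κB consensus. They are the 250 bases before the RefSeq start on GRCm38.p6, written 5′ to 3′ on the gene's strand, and the capitals mark the match, or the span of overlapping matches. Cxcl2, a further neutrophil chemokine named after its values were seen, read 19.5 and 16.4 units, 17.6 and 11, 12.7 and 25.3 and 388 and 350.4 with GFP, PGC-1α, GFP plus DFO and both, an interaction of 4.72 ± 0.55 (adjusted p = 0.05). It was dim without the combination, so the size of its departure is poorly fixed.
Cxcl1 (chr5:90890995-90891244, plus strand): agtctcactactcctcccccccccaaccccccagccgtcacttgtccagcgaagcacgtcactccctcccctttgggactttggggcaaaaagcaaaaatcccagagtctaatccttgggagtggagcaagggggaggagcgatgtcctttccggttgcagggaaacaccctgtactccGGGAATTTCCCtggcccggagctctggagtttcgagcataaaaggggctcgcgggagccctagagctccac
Cxcl2 (chr5:90903649-90903898, plus strand): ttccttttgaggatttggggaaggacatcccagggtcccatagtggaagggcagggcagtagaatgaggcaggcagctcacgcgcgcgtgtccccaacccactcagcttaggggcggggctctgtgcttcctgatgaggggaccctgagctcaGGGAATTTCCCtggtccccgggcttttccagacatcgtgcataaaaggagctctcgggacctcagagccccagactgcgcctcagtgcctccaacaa
Tnip1 (chr11:54962941-54963190, minus strand): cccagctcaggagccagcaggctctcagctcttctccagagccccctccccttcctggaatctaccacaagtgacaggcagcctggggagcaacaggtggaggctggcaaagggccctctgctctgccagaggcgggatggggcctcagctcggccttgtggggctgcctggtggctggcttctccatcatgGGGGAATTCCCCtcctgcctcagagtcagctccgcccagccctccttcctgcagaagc
In both chemokine promoters the match had the same letters, and it lay from base −71 to −61 before the Cxcl1 start and from −97 to −87 before that of Cxcl2. Searched on both strands, the consensus was found in 4.46% of the 27025 genes with a promoter in the table. It was found in 4 of the 33 genes above the sum that had an entry (12.1%), the fourth being Ttf2, a transcription termination factor named after its values were seen, and in 2 of the 38 below the sum (5.26%). Lcn2, Ptgs2 and Saa3 had a promoter in the table without the match, and Ccl2 and Cxcl5 were not matched to an entry. A match is a description of letters and says nothing of binding in these cells.

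Among genes of iron handling, 2 passed above the sum. Lcn2, lipocalin 2, a secreted protein that binds siderophores carrying iron and is also induced in inflammation, read 165 and 169 units with GFP, 525 and 511 with PGC-1α, 279.7 and 264 with GFP plus DFO and 2455 and 2441 with both. Each factor alone gave a higher level than GFP, and the combination was 2.9 times the expected 844 units (interaction 1.54 ± 0.11; adjusted p = 0.0251). Slc11a2, the divalent metal transporter that brings ferrous iron across membranes, read 425 and 440.4 units, 378 and 371, 297 and 305 and 682 and 683 in the same order. Each factor alone gave a lower level, the combination a higher one than GFP, and the interaction was 1.39 ± 0.11 (adjusted p = 0.0283). All 4 of its probe sets were above the sum, from 0.68 to 1.39. Over the 8 omissions the adjusted p ran from 0.0463 to 0.178 for Lcn2 and from 0.0484 to 0.178 for Slc11a2, each passing in 1. Of the 20 measured genes of iron uptake, storage, export and sensing, these 2 passed (4 above and 1 below the sum of 16 in the bright-gene fit), and the list's median of 0.03 was close to that of all genes.

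The other iron genes named by rule did not pass. Tfrc, the transferrin receptor, whose messenger RNA is stabilised when iron is low, read 3914 and 4334 units with GFP, 7693 and 8000.0 with PGC-1α, 4557 and 4646 with GFP plus DFO and 8151 and 7695 with both, close to the expected 8764 (interaction −0.15 ± 0.13; 95% interval −0.47 to 0.18). Fth1, the ferritin heavy chain that stores iron, had an interaction of 0.03 ± 0.12 (95% interval −0.27 to 0.34). Slc40a1, the iron exporter ferroportin, read 569 and 594 units, 411 and 440.3, 151 and 169.8 and 77.8 and 70.2 in that order, below the expected 117. Its interaction of −0.66 ± 0.15 passed in the bright-gene fit (adjusted p = 0.019) and not in the full one (adjusted p = 0.132).

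Ptgs2, cyclooxygenase 2, the inducible enzyme of prostaglandin synthesis, was raised by DFO alone and more so by both. It read 281 and 311 units with GFP, 292 and 283 with PGC-1α, 1982 and 1894 with GFP plus DFO and 6021 and 5221 with both, against an expected 1884. The interaction was 1.57 ± 0.15 (adjusted p = 0.0406), and the second probe set gave 1.91. Adamts4, a secreted protease that cleaves aggrecan, read 795 and 947 units with GFP, 910.4 and 929.9 with PGC-1α, 153 and 169 with GFP plus DFO and 788 and 694 with both. The effect of PGC-1α was 0.08 without DFO and 2.20 with it (interaction 2.12 ± 0.18; adjusted p = 0.0319). Enpep, aminopeptidase A, which trims angiotensin, read 207 and 196 units, 89.4 and 104, 95.9 and 90.2 and 145 and 153 in that order, an interaction of 1.74 ± 0.15 (adjusted p = 0.0322). Slc7a2, a carrier of cationic amino acids such as arginine, read 262 and 241 units with GFP, 142 and 151 with PGC-1α, 218 and 178 with GFP plus DFO and 788 and 605 with both (interaction 2.58 ± 0.24; adjusted p = 0.0373). Here the effect of PGC-1α changed from −0.78 without DFO to 1.81 with it, while 1 of the 4 probe sets of the gene gave −1.36. None of these 4 passed with any array left out (adjusted p 0.0522 to 0.219).

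In amino acid and mitochondrial metabolism several genes were above the sum. Bcat1, the cytosolic transaminase of branched-chain amino acids, read 673 and 692 units with GFP, 621 and 684 with PGC-1α, 389.5 and 395 with GFP plus DFO and 1615 and 1549.6 with both, 4.23 times the expected 374. Its interaction of 2.08 ± 0.12 passed (adjusted p = 0.0235). Oxct1, the mitochondrial enzyme that activates ketone bodies, read 3533 and 3596 units with GFP, 6792 and 7008 with PGC-1α, 1253 and 1255 with GFP plus DFO and 4849 and 4563 with both. It was higher with PGC-1α in both backgrounds, by 0.95 without DFO and by 1.91 with it (interaction 0.95 ± 0.11; adjusted p = 0.05), and its 4 probe sets gave 0.94 to 1.00. Hspe1, the small chaperonin of the mitochondrial matrix, had a log2 change with DFO of −1.36 in GFP cells and −0.24 in PGC-1α cells, with 3160.1 and 3258 units for GFP, 3466 and 3661 for PGC-1α, 1281 and 1225 for GFP plus DFO and 3116 and 2926 for both (interaction 1.12 ± 0.12; adjusted p = 0.0475).

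Cox6a2 is the heart and muscle isoform of a subunit of cytochrome c oxidase, complex IV. It read 4357 and 4106 units with GFP, 3662 and 3785 with PGC-1α, 635 and 669.5 with GFP plus DFO and 1399.9 and 1353 with both, 2.4 times the expected 574 units (interaction 1.26 ± 0.12; adjusted p = 0.0373). DFO thus lowered it in both backgrounds, by a smaller factor where PGC-1α was present. Mtfp1, an inner-membrane protein of mitochondrial fission, read 221 and 194 units with GFP, 975 and 966 with PGC-1α, 29 and 25.8 with GFP plus DFO and 379 and 375 with both. The log2 effect of PGC-1α was 2.23 without DFO and 3.78 with it (interaction 1.56 ± 0.15; adjusted p = 0.0398), while in intensity units the gain was smaller with DFO. Its level with GFP plus DFO was under the array medians, so the size of its departure is poorly fixed. Miga2, an outer-membrane protein of mitochondrial fusion, read 235 and 217 units, 498 and 507, 165 and 145 and 905 and 845 in that order (interaction 1.35 ± 0.15; adjusted p = 0.0475), and 1 of its 4 probe sets gave −2.26. Of these mitochondrial genes and Bcat1, Bcat1 passed in 1 of the 8 omissions and the others in none (adjusted p from 0.041 to 0.253 over all of them).

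Apart from Cox6a2, no listed gene of the respiratory chain or the citric acid cycle passed in the full fit. Of 33 complex I genes none passed in limma. At an unadjusted p under 0.05, reached by 17.4% of all genes, 21 were above the sum and 1 below it. In the bright-gene fit 13 of 32 passed above and 1 below, and the median was 0.36. The 18 genes of the citric acid cycle and pyruvate dehydrogenase had none called in limma, 9 above and none below the sum at an unadjusted p under 0.05, and 8 above and none below in the bright-gene fit. Their median was 0.40, and 0.14 where a gene's probe sets were averaged. Complexes II and III had a median of 0.19, complex IV 0.09, ATP synthase 0.11, fatty acid oxidation 0.01 and the 74 proteins of the mitochondrial ribosome 0.02. Cs, citrate synthase, read 3249.7 and 3259 units with GFP, 8044 and 7936 with PGC-1α, 1971 and 1941 with GFP plus DFO and 7135 and 6814 with both, an interaction of 0.54 ± 0.11 (adjusted p = 0.107; 0.0154 in the bright-gene fit). Ndufs1, which carries iron-sulfur clusters in complex I, had 0.54 ± 0.11 (adjusted p = 0.11; 0.0161), and Idh3a, a subunit of isocitrate dehydrogenase, 0.62 ± 0.13 (adjusted p = 0.113; 0.015), though the other 3 probe sets of Idh3a were negative. Sdhb, the iron-sulfur subunit of complex II, had 0.22 ± 0.13 (95% interval −0.09 to 0.54) and Cycs, cytochrome c, 0.47 ± 0.16 (95% interval 0.06 to 0.88).

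Of 24 measured partners and known targets of PGC-1α, 18 had an interaction below 0 and 6 above it. At an unadjusted p under 0.05 in limma, 7 were below the sum and 1 above. The highest value of the list was that of Esrra. Esrra, the estrogen-related receptor α, read 239.6 and 225 units with GFP, 1004 and 1144 with PGC-1α, 179.7 and 184 with GFP plus DFO and 1197 and 1191 with both (interaction 0.51 ± 0.14; adjusted p = 0.168; 0.0349 in the bright-gene fit). Pdk4, a kinase that shuts off pyruvate dehydrogenase, had −0.37 ± 0.14 (adjusted p = 0.268). Ckmt2, the mitochondrial creatine kinase of sarcomeric muscle, was below the sum as well. It read 683 and 622 units with GFP, 4904 and 5045 with PGC-1α, 81.5 and 97.5 with GFP plus DFO and 243 and 253 with both, below an expected 680.2. PGC-1α raised it in both backgrounds, by 2.93 without DFO and 1.48 with it (interaction −1.46 ± 0.17; adjusted p = 0.05). Coq8a, a kinase-like protein needed for coenzyme Q synthesis, is not on that list and was named for its size. It read 3426 and 3273 units with GFP, 4277 and 4322 with PGC-1α, 1166 and 1220.4 with GFP plus DFO and 431 and 378 with both. It was thus higher with PGC-1α alone and lowest with both (interaction −1.92 ± 0.14; adjusted p = 0.0251). Of 24 listed partners and targets 1 passed below the sum and none above (1 above and 4 below of 16 in the bright-gene fit), with a median of −0.30. Over the 8 omissions Ckmt2 passed in none (0.0755 to 0.186) and Coq8a in 1 (0.041 to 0.178).

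Several calls below the sum were genes of the muscle fibre, grouped here by known role and not by a test. Pdlim3, a Z-disc protein that binds α-actinin, read 4802 and 4884 units with GFP, 2049.7 and 1958 with PGC-1α, 832 and 772 with GFP plus DFO and 48.2 and 49.3 with both. Each factor alone gave less than GFP, and both gave 6.8 times less than the expected 331 (interaction −2.77 ± 0.12; 95% interval −3.06 to −2.47; adjusted p = 0.00937). Trdn, triadin, which ties calsequestrin to the calcium release channel, read 1482 and 1557 units with GFP, 998 and 976 with PGC-1α, 408 and 380.3 with GFP plus DFO and 63.6 and 59.7 with both (interaction −2.05 ± 0.12; adjusted p = 0.0235). Of its 6 probe sets, 5 were below the sum. Chrng, the fetal γ subunit of the muscle acetylcholine receptor, read 4391 and 4106 units with GFP, 2521 and 2569 with PGC-1α, 710.5 and 707 with GFP plus DFO and 125 and 112 with both, 3.59 times under the expected 425 (interaction −1.84 ± 0.13; adjusted p = 0.0251). The combination was the lowest group in all 3. They were named for the size of their departures, so this adds no support. With both factors Pdlim3 read under the medians of these arrays, 62.35 and 61.5 units, and Trdn close to them. Tmem182, Mymx, Myog, Ogn and Tgfb3, described below, likewise read near or under these medians with both factors. The size of these departures is thus poorly fixed. Over the 8 omissions Pdlim3 passed in 3 (adjusted p 0.033 to 0.0804), and Trdn and Chrng in 1 each (0.041 to 0.178).

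Tmem182, a membrane protein of muscle, read 2250.1 and 2447 units with GFP, 1739.6 and 1752 with PGC-1α, 581 and 629 with GFP plus DFO and 84.1 and 62.3 with both (interaction −2.63 ± 0.23; adjusted p = 0.0319). Popdc3, a cyclic-AMP-binding Popeye protein of striated muscle, read 3626 and 3640.5 units, 2949 and 2765, 2146 and 2028 and 443 and 377 in the same order (interaction −2.0 ± 0.15; adjusted p = 0.0283). Cdh15, M-cadherin, the adhesion molecule of myogenic cells, read 1493 and 1309.8 units with GFP, 1276 and 1285 with PGC-1α, 306 and 312 with GFP plus DFO and 120.2 and 120.4 with both (interaction −1.23 ± 0.13; adjusted p = 0.047). In all 3 the construct made little difference without DFO, at −0.43, −0.35 and −0.13, and the level was lower with it, at −3.06, −2.35 and −1.36. Tmem182 and Popdc3 passed in 1 of the 8 omissions (0.041 to 0.178) and Cdh15 in none (0.0672 to 0.241). Cdh15 was the only call among 20 genes of undifferentiated myoblasts and reserve cells (1 above and 5 below of 16 in the bright-gene fit; median −0.37).

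Further calls of this kind, named after their values were seen, covered membrane fusion, the contractile apparatus and calcium handling. Mymx, the fusion peptide myomixer, read 579.7 and 554 units with GFP, 572 and 526 with PGC-1α, 70.4 and 53.2 with GFP plus DFO and 7.93 and 9.15 with both (interaction −2.80 ± 0.23; adjusted p = 0.0287). Klhl41, a Kelch protein of myofibril assembly, read 5956 and 5707 units with GFP, 3436 and 3348 with PGC-1α, 1846 and 1757 with GFP plus DFO and 312 and 301 with both (interaction −1.77 ± 0.11; adjusted p = 0.0251). The interaction was −1.66 ± 0.15 for Synpo2l, an actin-binding Z-disc protein, −1.44 ± 0.13 for Cacng1, a subunit of the muscle calcium channel, and −1.34 ± 0.11 for Ankrd1, a titin-associated stress protein. It was −1.30 ± 0.11 for Myom2, an M-band protein, −1.09 ± 0.12 for Casq2, calsequestrin 2, and −1.0 ± 0.12 for Tpm1, tropomyosin.

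Of the 26 measured myogenic and differentiation genes, 1 passed below the sum and none above, and in the bright-gene fit 13 of 23 passed below and 1 above. The median was −0.75, and 21 of the 26 were under 0. Myog, myogenin, the factor that starts terminal differentiation, read 5223 and 5330.2 units with GFP, 5296 and 5245 with PGC-1α, 174 and 141 with GFP plus DFO and 63.1 and 71.1 with both. Its log2 change with DFO was −5.08 in GFP cells and −6.30 in PGC-1α cells (interaction −1.22 ± 0.18; adjusted p = 0.0676; 0.00394 in the bright-gene fit). Ckm, muscle creatine kinase, read 5465 and 4969 units, 3651 and 3709.9, 531 and 541 and 224 and 237 in that order (interaction −0.72 ± 0.13; adjusted p = 0.0854; 0.00833). The 14 fast sarcomere genes had a median of −0.52 with 6 below and none above of 13 in the bright-gene fit, and the 15 slow and cardiac ones −0.38 with 6 below and 1 above of 13. None of the 14 passed in the full fit, in either direction, and at an unadjusted p under 0.05 there were 8 below and none above.

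Myl2, the regulatory myosin light chain of slow and cardiac fibres, was the only call on the slow and cardiac list, and it was above the sum. It read 2346 and 2444 units with GFP, 2518 and 2687 with PGC-1α, 53.3 and 57.9 with GFP plus DFO and 173 and 196 with both, 3.06 times the expected 60.3 (interaction 1.61 ± 0.15; adjusted p = 0.0366; 0.0484 to 0.209 over the 8 omissions). On the log2 scale DFO changed it by −5.43 in GFP cells and −3.82 in PGC-1α cells, so the combination still held far less than either group without DFO. Its level with GFP plus DFO was under the array medians, so the size of its departure is poorly fixed. Speg, a kinase of striated muscle that associates with the calcium store, read 495 and 509 units with GFP, 392 and 417 with PGC-1α, 271 and 251 with GFP plus DFO and 623 and 538 with both. Its 4 probe sets gave 1.12 to 1.79 (interaction of the brightest 1.46 ± 0.15; adjusted p = 0.0451; 0.0552 to 0.219 over the omissions).

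**Figure D3:**
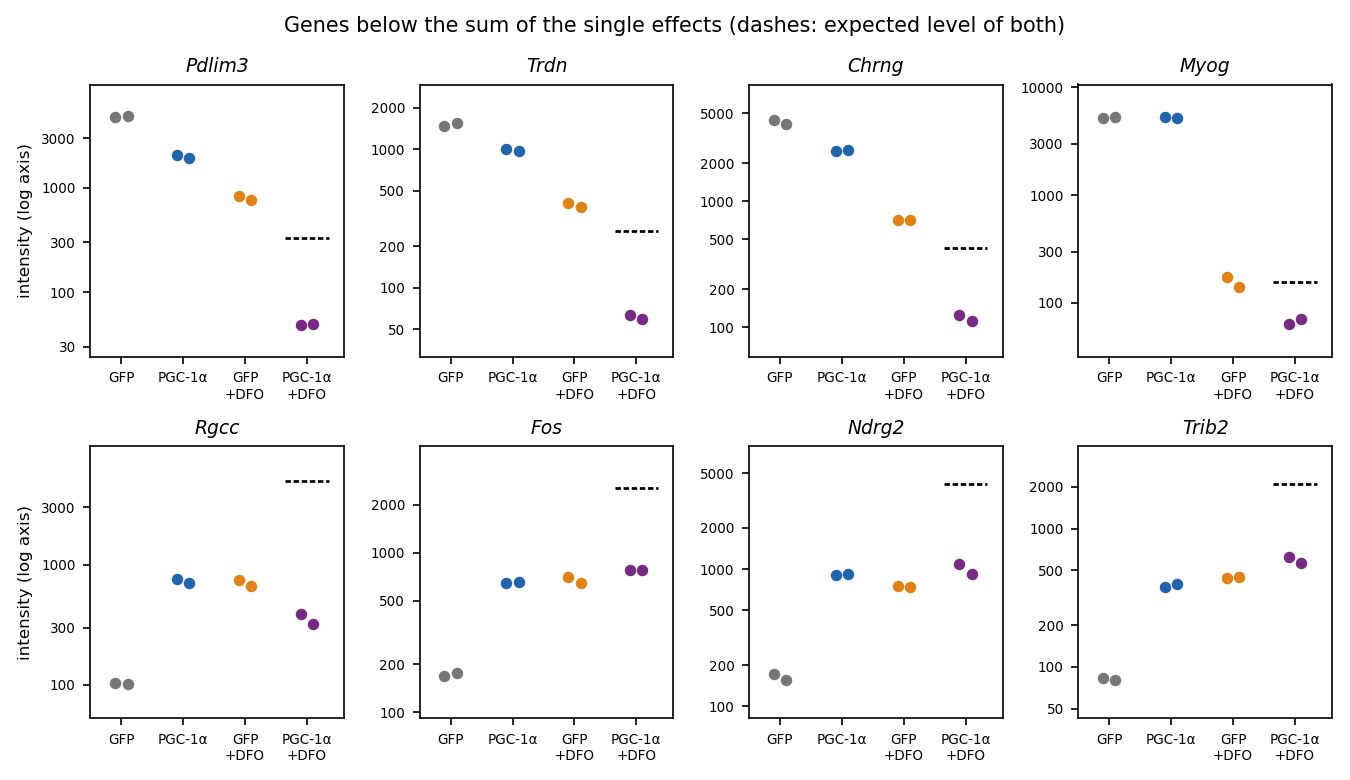
Probe-set intensity on a log axis for 8 genes, with 1 point per array, 2 arrays in each of the 4 groups, and a dashed line at the level expected of both factors. The upper panels hold muscle genes that were lower with DFO, the lower panels genes that each factor alone raised, and in all 8 both purple points lie below the dashes; Myog, with an adjusted p of 0.0676, is the one that did not pass.

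Promoters of 2 genes of this group are shown because they hold the E-box CAGCTG, a form that myogenic factors bind, marked in capitals. They are again the 250 bases before the start on GRCm38.p6.
Chrng (chr1:87205561-87205810, plus strand): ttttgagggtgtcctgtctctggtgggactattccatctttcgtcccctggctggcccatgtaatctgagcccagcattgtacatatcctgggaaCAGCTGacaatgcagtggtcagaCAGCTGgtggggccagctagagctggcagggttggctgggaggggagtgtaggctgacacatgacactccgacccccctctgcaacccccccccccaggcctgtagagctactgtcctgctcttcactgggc
Klhl41 (chr2:69669870-69670119, plus strand): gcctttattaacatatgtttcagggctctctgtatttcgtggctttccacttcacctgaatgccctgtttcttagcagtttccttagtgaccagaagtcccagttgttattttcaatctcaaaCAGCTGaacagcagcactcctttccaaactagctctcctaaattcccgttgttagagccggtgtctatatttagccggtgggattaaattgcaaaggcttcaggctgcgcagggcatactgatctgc
Chrng held the box at 2 places and Klhl41 at 1. The letters CAGCTG, which read the same on both strands, occurred in 14.7% of all promoters in the table, in 11 of the 38 matched genes below the sum (28.9%) and in 4 of the 33 above it (12.1%). The MEF2 consensus occurred in 3.42% of all promoters and in 13.2% and 9.09% of the genes below and above the sum. The CArG box, which serum response factor binds, occurred in 1.62%, 7.89% and 0%, and the AP-1 element TGANTCA in 7.82%, 5.26% and 12.1%. The estrogen-related receptor element TNAAGGTCA was in 1.3% of all promoters and in none of the matched calls. The core letters of HIF elements, ACGTG and GCGTG, were in 18.5% and 30.9% of all promoters, 15.8% and 34.2% of those below and 15.2% and 39.4% of those above the sum.

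A different shape was that of genes which either factor alone raised and for which the combination was at, under or little above the higher single level. Rgcc, a regulator of the cell cycle that responds to complement, had the largest negative departure among genes above the median level. It read 105 and 103 units with GFP, 755 and 711 with PGC-1α, 749.7 and 666 with GFP plus DFO and 388 and 322 with both. Multiplying the single effects gives an expected 4996 units, 14.1 times more than observed, and both together gave less than either factor alone (interaction −3.82 ± 0.18; 95% interval −4.27 to −3.37; adjusted p = 0.0104). The second probe set gave −3.49, and the gene passed in 3 of the 8 omissions (0.0354 to 0.0804). Spsb4, a substrate adaptor of a ubiquitin ligase, read 31.2 and 33 units with GFP, 400.1 and 473 with PGC-1α, 128 and 117 with GFP plus DFO and 248 and 162 with both (interaction −3.05 ± 0.31; adjusted p = 0.0443). Its level with GFP was under the array medians, so the size of its departure is poorly fixed.

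Fos, the AP-1 subunit encoded by an immediate early gene, read 168 and 176 units with GFP, 639.9 and 655 with PGC-1α, 705 and 642 with GFP plus DFO and 776 and 782 with both. The combination was slightly above either factor alone and far under the expected 2539 (interaction −1.70 ± 0.12; adjusted p = 0.0251). Ndrg2, a stress-responsive gene of the Ndrg family, read 172 and 154 units with GFP, 912 and 915 with PGC-1α, 752 and 739.8 with GFP plus DFO and 1083 and 922 with both (interaction −2.07 ± 0.16; adjusted p = 0.0283). Trib2, a pseudokinase that directs proteins to degradation, read 84 and 80.2 units with GFP, 375 and 399 with PGC-1α, 442 and 446 with GFP plus DFO and 627 and 566 with both (interaction −1.81 ± 0.13; adjusted p = 0.0251). The effect of PGC-1α was thus 1.92, 2.49 and 2.24 for these 3 without DFO and 0.21, 0.42 and 0.42 with it. Srxn1, sulfiredoxin, which repairs oxidised peroxiredoxins, read 215 and 194 units, 346 and 359, 1126 and 1072 and 806 and 700.2 in the order GFP, PGC-1α, GFP plus DFO and both. The effect of PGC-1α was 0.79 without DFO and −0.55 with it (interaction −1.33 ± 0.16; adjusted p = 0.05). Lurap1l read 254 and 302 units, 395 and 463, 489.9 and 440.0 and 203 and 197 in that order (interaction −1.84 ± 0.19; adjusted p = 0.0455), but a dim probe set of the gene gave 3.58. Spsb4, Fos, Ndrg2 and Trib2 passed in 1 of the 8 omissions each, and Srxn1 and Lurap1l in none (adjusted p 0.041 to 0.253 over all 6).

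Fos was the only call among 19 AP-1 and immediate early genes, of which 5 of 18 passed below and none above in the bright-gene fit (median −0.33). Of its other members, picked after their values were seen, Dusp1, a phosphatase of mitogen-activated kinases, had −0.97 ± 0.15 (adjusted p = 0.07), and Jun, the partner of Fos, −0.09 ± 0.11 (adjusted p = 0.75). Srxn1 was the only call among 17 antioxidant enzymes (2 above and 4 below of 15 in the bright-gene fit; median −0.15).

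Further calls below the sum, put together here by known role and not by a test, included genes of the matrix and of signalling. Ogn, osteoglycin, a small leucine-rich proteoglycan, read 2646 and 3239.7 units with GFP, 2822 and 2763 with PGC-1α, 444 and 364 with GFP plus DFO and 66.7 and 64.9 with both, 5.83 times under the expected 384 (interaction −2.54 ± 0.21; adjusted p = 0.0287). Tgfb3, a ligand of the transforming growth factor β family, read 1457 and 1473 units with GFP, 756 and 806 with PGC-1α, 565 and 575 with GFP plus DFO and 71.8 and 64.5 with both (interaction −2.16 ± 0.13; adjusted p = 0.0235). Postn, periostin, a matrix protein induced by that family, read 754 and 720.0 units with GFP, 827 and 863 with PGC-1α, 533 and 474 with GFP plus DFO and 183 and 176 with both (interaction −1.68 ± 0.13; adjusted p = 0.0287). For Ogn and Postn, PGC-1α alone left the level within the range of the GFP arrays or slightly above it, and with DFO it was lower by 2.61 and 1.49 on the log2 scale. Postn was the only call among 26 collagen and matrix genes (6 of 22 below and none above in the bright-gene fit; median −0.29).

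Nr2f1, the orphan nuclear receptor COUP-TFI, read 677 and 685 units with GFP, 606 and 561 with PGC-1α, 416 and 401 with GFP plus DFO and 78 and 86.1 with both (interaction −2.09 ± 0.13; adjusted p = 0.0251). Nrep, a small cytoplasmic protein linked to nerve regeneration, read 1802 and 1659 units, 1864 and 1751, 1273 and 1224 and 338 and 311 in that order (interaction −2.01 ± 0.13; adjusted p = 0.0251). Tcim, a regulator of transcription and immune responses, was high in the group of GFP plus DFO alone, at 127 and 143 units with GFP, 98.1 and 82.9 with PGC-1α, 594 and 524 with GFP plus DFO and 109 and 108 with both (interaction −1.79 ± 0.18; adjusted p = 0.0443). Of the last 6 genes, Tgfb3, Nr2f1 and Nrep passed in 1 of the 8 omissions and Ogn, Postn and Tcim in none (adjusted p 0.041 to 0.219).

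HIF targets, which DFO alone moved by a median of 2.01 (log2), had a median interaction of −0.20 over 25 measured genes. Pfkfb4, an enzyme that sets the level of the glycolytic activator fructose 2,6-bisphosphate, was the one that passed, above the sum. It read 215 and 201 units with GFP, 286 and 282 with PGC-1α, 233 and 226 with GFP plus DFO and 787 and 716 with both (interaction 1.26 ± 0.13; adjusted p = 0.0443; 0.0557 to 0.233 over the omissions). DFO alone made little difference to this gene, at 0.14. In the bright-gene fit 7 of 21 targets passed below the sum and 1 above. Vegfa, the vascular growth factor, read 932 and 1019 units with GFP, 1615 and 1619 with PGC-1α, 2431 and 2264 with GFP plus DFO and 2763 and 2691 with both, under the expected 3894 (interaction −0.51 ± 0.13; adjusted p = 0.148; 0.0267 in the bright-gene fit). Egln3, an HIF prolyl hydroxylase that HIF itself induces, had −0.23 ± 0.12 (95% interval −0.54 to 0.07), Ldha, lactate dehydrogenase A, −0.10 ± 0.12 (−0.40 to 0.20), and Car9, carbonic anhydrase 9, 0.51 ± 0.44 (−0.60 to 1.62). Glycolysis had a median of −0.22 over 18 genes, with 5 below and 1 above in the bright-gene fit and no call in the full one, where 1 above and 5 below had an unadjusted p under 0.05.

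**Figure D4:**
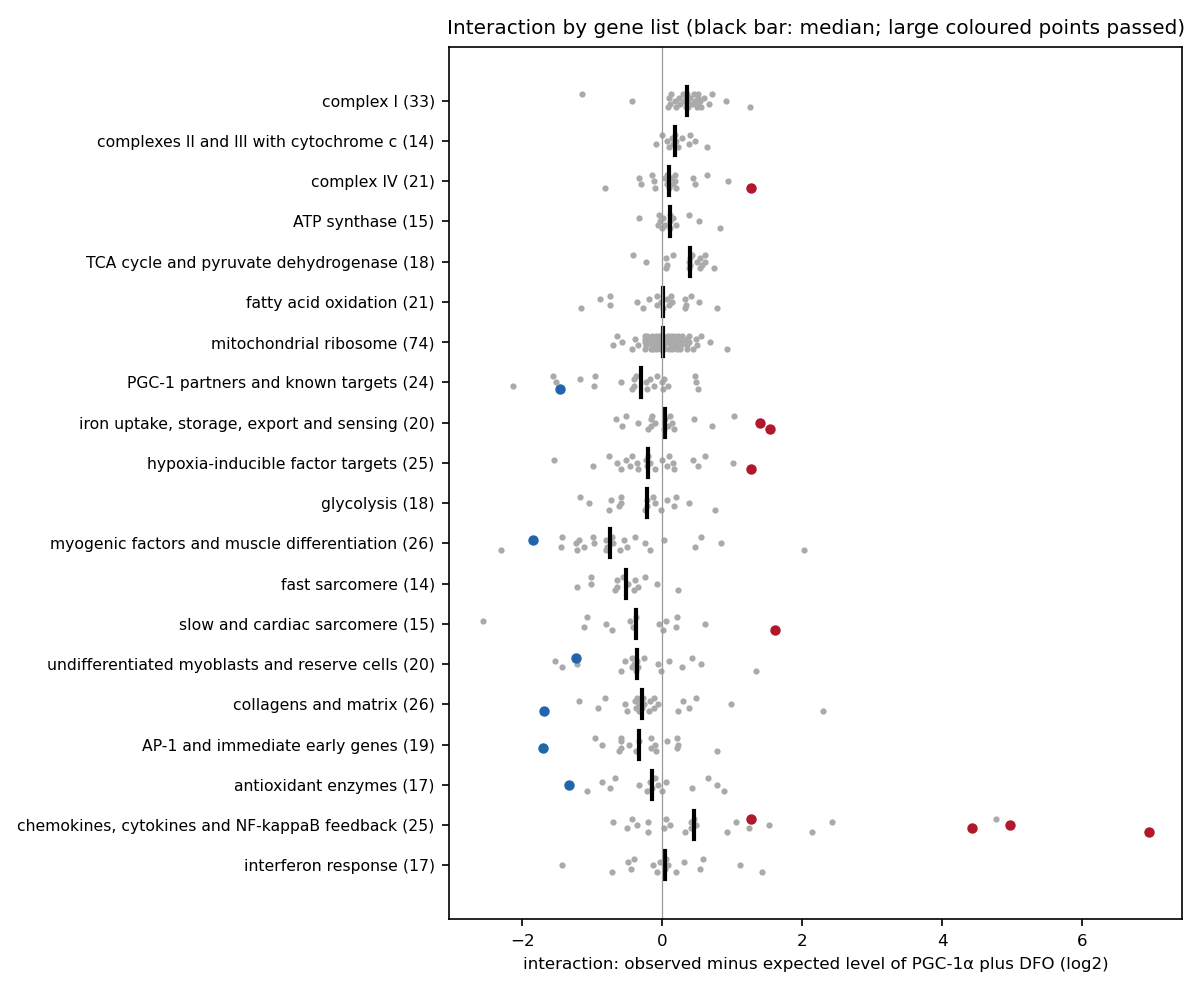
Interaction (log2, x axis) of every measured member of 20 gene lists, with 1 point per gene, the number measured in brackets and a black bar at the list's median; large red and blue points passed above and below the sum. The chemokine list reaches 6.95 with 4 red points, the complex I genes cluster around a median of 0.36, and the myogenic genes around −0.75.

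Calls outside these groups included 2 more named by rule. Nefm, the middle neurofilament subunit, a neural gene, read 29 and 35.3 units with GFP, 225 and 223 with PGC-1α, 59.2 and 57.1 with GFP plus DFO and 1270.1 and 1138 with both (interaction 1.56 ± 0.18; adjusted p = 0.0496; 0.0698 to 0.243 over the omissions). Nefm read under the array medians with GFP and with GFP plus DFO, so the size of its departure is poorly fixed. It was 1 call of 17 listed neural and other non-muscle markers, whose median was 0.32 with 3 of them above the median level. Setd5, a SET-domain chromatin regulator, read 955 and 801 units, 124 and 122, 1356 and 1361 and 543 and 510.5 in the order GFP, PGC-1α, GFP plus DFO and both (interaction 1.46 ± 0.16; adjusted p = 0.047; 0.0682 to 0.241). Its other 2 probe sets gave −0.28 and −0.37. Of the 23 named calls with more than 1 probe set, 17 had all of them on the same side of the sum, and the 6 others were Chrng, Lurap1l, Miga2, Setd5, Slc7a2 and Trdn. Cdkn1a, the cell cycle inhibitor p21, did not pass, at 0.23 ± 0.11 (95% interval −0.05 to 0.50).

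The direction of the list medians depended on the scaling where they were small. Scaled to the 27 probe sets of poly-A RNA controls, the median of all genes moved from −0.01 to 0.28, and the medians of HIF targets (0.09), glycolysis (0.08), collagens and matrix (0.01) and antioxidant enzymes (0.14) became positive while staying under that of all genes. Those of the chemokines (0.75), complex I (0.65), the myogenic genes (−0.46) and the fast (−0.23) and slow (−0.09) sarcomere kept their sign. Median centring turned those of fatty acid oxidation and the mitochondrial ribosome to −0.01. With the scaling to the poly-A controls 4 genes passed in all.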

How the data were processed

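Messenger RNA was measured on 8 Affymetrix mouse arrays, whose groups follow the sample titles. For every array the authors deposited linear probe-set intensities, and their background correction, summarisation and scaling are not given in the sources used here. Of 45101 probe sets 34945 carried 1 gene symbol in the platform annotation, and each of 18193 genes was represented by the brightest of these over all 8 arrays (9010 genes had more than 1). The deposited intensities were transformed to log2 without a pseudocount or a filter.

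A mean for each group was fitted with limma 3.58.1 under R 4.3.3 (4 residual and 1.30 prior degrees of freedom). The tests were two-sided, p-values were adjusted by Benjamini-Hochberg over all genes, and an adjusted p of 0.05 was the threshold. Errors are limma's SE, and intervals are 95%. The procedure was tested on simulated data.

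The 4 groups, the members and the gene lists were chosen with earlier results of these data known. Named genes were the 15 largest calls in each direction above the median level, up to 4 calls per list, the leading calls of each shape class, and 18 genes taken whatever their values. Names chosen after values were seen are marked as such. A gene was called bright where its mean log2 was above the median of all genes. Alternatives were other scalings, probe-set choices, filters, a pseudocount of 16, trended and robust variance, the replicate number as a block, a minimum size, the linear scale, and each array left out. The number of arrays limits the precision. Promoters came from RefSeq tables for GRCm38.p6 and were found for 33 of 42 and 38 of 59 calls. The plots used Python 3.11.15 and matplotlib 3.10.9.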

Additional observations from a re-analysis of the deposited data

Results flagged for a closer look

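A result was picked out here where the effect of PGC-1α differed between cells without and with DFO past an adjusted p of 0.05 in limma, which was the case for 43 named genes. The values are the differences of the 2 effects, on the log2 scale. Among secreted and inflammatory genes and their regulators, the difference was 6.95 for Saa3, 4.97 for Cxcl5, 4.42 for Cxcl1 and 1.57 for Ptgs2. In the same group it was 1.54 for Lcn2, 1.48 for Tnip1, 1.27 for Ccl2, 2.12 for Adamts4 and 1.74 for Enpep. Among genes of transport and metabolism, the difference was 2.58 for Slc7a2, 2.08 for Bcat1 and 1.39 for Slc11a2. In the same group it was 1.26 for Pfkfb4, 0.95 for Oxct1, −1.92 for Coq8a and −1.46 for Ckmt2. Among other genes of the mitochondrion, the difference was 1.56 for Mtfp1, 1.35 for Miga2, 1.26 for Cox6a2 and 1.12 for Hspe1. Among genes of the muscle fibre, the difference was 1.61 for Myl2, 1.46 for Speg, −2.77 for Pdlim3 and −2.63 for Tmem182. In the same group it was −2.05 for Trdn, −2.0 for Popdc3, −1.84 for Chrng and −1.23 for Cdh15. Among regulators and stress genes, the difference was 1.46 for Setd5, −3.82 for Rgcc, −3.05 for Spsb4, −2.09 for Nr2f1 and −2.07 for Ndrg2. In the same group it was −1.84 for Lurap1l, −1.81 for Trib2, −1.79 for Tcim, −1.70 for Fos and −1.33 for Srxn1. Among matrix, growth factor and neural genes, the difference was 1.56 for Nefm, −2.54 for Ogn, −2.16 for Tgfb3, −2.01 for Nrep and −1.68 for Postn. Groups of 2 arrays are too small to look for an array that stands apart.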

How the results depend on the processing

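The count of 101 genes (42 above the sum, 59 below) moved with most choices. All 101 kept their sign under quantile normalization and a pseudocount of 16. The sign was kept by 99 of 101 with a gene's probe sets averaged and by 100 with a floor at the 25th percentile. With _x_at and _s_at sets dropped, 98 of the 99 calls tested kept it. Some choices could not turn a sign. Trended and robust variance leaves the interaction as it is. Median centring and spike-in scaling shift all genes alike, by less than the smallest call of 0.95. No omission of 1 array could turn a sign either, as stated above. Quantile normalization gave 216 genes (95 above, 121 below), with 100 of the 101 calls kept, and scaling to the poly-A controls 4 (2 and 2). Averaging a gene's probe sets gave 4 (2 and 2), leaving out probe sets ending in _x_at or _s_at 58 (21 and 37), and testing every probe set on its own 41 genes (12 and 29). The genes above the median level alone gave 1316 (475 and 841), a floor at the 25th percentile 448 (182 and 266), trended and robust variance 1467 (562 and 905), and a pseudocount of 16 315 (127 and 188). Leaving out 1 array gave 0 to 77 genes, 0 to 24 above the sum and 0 to 53 below. Where 1 array is left, it is assumed to vary like the other groups. Median centring and a minimum size of 1 stayed within 1.5 times the count of 101.

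In plain intensity units the departure of Chrng was 1113, of Pdlim3 2086, of Trdn 200.2, of Tgfb3 181.7, of Tmem182 70.86, of Mtfp1 −413.2, of Myl2 −78.02 and of Setd5 −77.29, each opposite in sign to its log2 value, as the change of scale allows. The mean of its probe sets gave Lurap1l 0.2571 instead of −1.84, and its dim probe set at 3.58 accounts for that. Among the other results for single genes 738 stayed on their side of the threshold, 21 passed newly and 475 no longer passed.

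Replicate numbers did not pair the arrays: the correlation of same-numbered deviations ran from −0.11 to 0.221 between groups. With the replicate number as a block 3 genes passed, 2 above the sum and 1 below, and 2 of the 101 calls were kept. Signal over background limits the dim genes, whose median SE was 0.509, and among these a departure from the sum can go undetected.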

Other observations

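Some lists that the text has not described are set here beside all genes. Of these 0.555% passed in the full fit, and 17.4% had an unadjusted p under 0.05 in limma. In the bright-gene fit 14.5% of its genes passed. Of 24 genes of the integrated stress response none passed in limma (7 above and 5 below the sum at an unadjusted p under 0.05), and in the bright-gene fit 5 of 23 passed above and 3 below. Of members picked after their values were seen, Asns, asparagine synthetase, had an interaction of 0.62 ± 0.11, Cth, cystathionine γ-lyase, 1.05 ± 0.23, and Chac1, which degrades glutathione, −0.92 ± 0.26. The 18 cholesterol synthesis genes had a median of −0.10, with 3 below the sum and none above in the bright-gene fit. The list of branched-chain amino acid breakdown, 18 genes, had a median of −0.09 with Oxct1 as the only call. In the bright-gene fit 3 of its 17 passed above and 4 below. Bcat1, a call described above, is not on that list. Of 18 heat shock proteins Hspe1 was the only call, and the median was 0.17. The 17 interferon response genes had a median of 0.05 and no call in either fit. At an unadjusted p under 0.05 none of them was above the sum and 2 were below.

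The values of 3 muscle-secreted factors are given, picked after they were seen. Nppb, a natriuretic peptide, read 102 and 79.7 units with GFP, 1459 and 1488 with PGC-1α, 75.4 and 86.8 with GFP plus DFO and 3282 and 3272 with both (interaction 1.31 ± 0.21; adjusted p = 0.0043 in the bright-gene fit and 0.0726 in the full one). Lif, leukaemia inhibitory factor, had 2.14 ± 0.30 (adjusted p = 0.0634), and Bdnf, the brain-derived neurotrophic factor, −1.23 ± 0.24 (adjusted p = 0.105; 0.00972 in the bright-gene fit).

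Epidermal genes were also among the calls, named here after their values were seen. Sprr2d, a small proline-rich protein of the cornified envelope, read 17.6 and 22.7 units with GFP, 23.6 and 19.3 with PGC-1α, 42.9 and 51.1 with GFP plus DFO and 2819.6 and 2836 with both (interaction 5.82 ± 0.25; adjusted p = 0.00937). Sprr1b, of the same family, read 13 and 11.8 units, 11.6 and 12.6, 62.3 and 61.5 and 244 and 211 in that order (interaction 1.92 ± 0.16; adjusted p = 0.0287). Both read under the array medians with GFP and with PGC-1α, so the size of their departures is poorly fixed. Fgf7, a growth factor for epithelium, read 75.3 and 74.2 units with GFP, 42.2 and 58.1 with PGC-1α, 92.9 and 86.5 with GFP plus DFO and 439 and 417 with both (interaction 2.85 ± 0.23; adjusted p = 0.0287). Txnip, the thioredoxin-interacting protein that limits glucose uptake, was lower with both at 1048 and 1028 units, against 2121 and 1948 with GFP, 2305 and 2216 with PGC-1α and 2819.6 and 2762 with GFP plus DFO (interaction −1.58 ± 0.12; adjusted p = 0.0283).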
